A study of Sus scrofa with 14 samples.

Results

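Mitochondrial DNA encodes the catalytic cores of the respiratory chain, and 6 of its protein-coding genes are described here in porcine embryo-derived and reprogrammed cells. They were chosen by gene identifier and name, not by their values, although earlier results of these data were known. They are 6 of the 19588 genes in the table. COX1 (ENSSSCG00000018075), COX2 (ENSSSCG00000018078) and COX3 (ENSSSCG00000018082) encode the core of complex IV, cytochrome c oxidase. ATP6 (ENSSSCG00000018081) and ATP8 (ENSSSCG00000018080) encode membrane subunits of complex V, the ATP synthase. CYTB (ENSSSCG00000018094) encodes cytochrome b, the core of complex III. All 6 passed the filter on low values (10 or more normalized counts, in 2 or more samples), as did 16028 genes in all.

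Complex III passes electrons from ubiquinol to cytochrome c, complex IV passes them on to oxygen, and both pump protons whose return through complex V drives the synthesis of ATP. The mitochondrial genome is transcribed into long precursors, which are cut mostly at the tRNAs that lie between the genes, so the level of each mRNA depends on its processing and stability as well as on transcription. The remaining subunits of these complexes are encoded in the nucleus, and both sets must be made for a complex to assemble. Pluripotent cells are known for a high rate of glycolysis, and the primed and naïve states are known to differ in how much they use oxidative phosphorylation.

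Polyadenylated RNA was sequenced from 7 groups of 2 samples, 14 in all, from pig cells grown on irradiated mouse embryonic fibroblasts. The pESCLC-primary samples were outgrowths of blastocysts, and the other pESCLC (embryonic stem cell-like cell) samples were lines grown on from such outgrowths. By the codes in the labels, pESCLC-F was lines A1 and A2 at passage 2, pESCLC-FLB2i was line B1 at passages 3 and 6, and pESCLC-FL6i was line C2 at passages 3 and 9. Cells from the F culture were moved to FL6i, and some of these were later moved to FLB2i. The Lv-piPSC-F samples were induced pluripotent cells made with lentiviral vectors, which stay in the genome. Both were labelled with the line code ID6, and the second, at passage 46, also had a code of its own. The Epi-piPSC were made from fetal fibroblasts with episomal plasmids carrying human reprogramming genes and a p53 shRNA. Epi-piPSC-FLB2i was line B5 at passages 9 and 12, and Epi-piPSC-FL6i was lines C10 at passage 12 and C11 at passage 11. F medium contained FGF2, but its base differed between pESCLC and Lv-piPSC. FLB2i contained LIF, FGF2, BMP4 and inhibitors of GSK3 and TGFB signaling. FL6i contained FGF2, LIF and inhibitors of p38, JNK, TGFB, GSK3, MEK and BMP signaling. In 3 of the groups both samples were passages of 1 line, and Lv-piPSC-F also rested on 1 line by its code, so the p-values measure the spread between these samples only, and line and medium cannot be told apart. FLB2i and FL6i were both sampled at passage 3 in pESCLC and at passage 12 in Epi-piPSC, with 1 sample each.

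In the Sscrofa11.1 assembly all 6 genes lie on the same strand of the mitochondrial chromosome, which has 16613 bases, and each is a single coding segment without introns. COX1 lies at chrMT:6511-8055, COX2 at chrMT:8203-8890, ATP8 at chrMT:8959-9162, ATP6 at chrMT:9120-9800, COX3 at chrMT:9800-10583 and CYTB at chrMT:15342-16481. ATP8 and ATP6 are read from 1 mRNA in different frames and share 43 bases. A read pair that covers both genes is assigned to neither under the counting defaults, so the counts of both are uncertain. The shared bases are shown because they are why the counts of these neighbors cannot be fully separated, with the start codon of ATP6 and the stop codon of ATP8 in capitals (RefSeq, Sscrofa11.1, plus strand, chrMT:9120-9162).

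ATP8 and ATP6 shared bases: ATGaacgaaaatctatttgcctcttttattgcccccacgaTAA

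ATP6 and COX3 share 1 base, shown in capitals at chrMT:9786-9815, so no tRNA marks the cut between these transcripts.

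ATP6 and COX3 junction: cacgacaatacataAtgacccaccaaacac

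The ends of the genes also differ. The libraries were made from polyadenylated RNA, and the part of these ends in the counts was not tested. The last 30 bases of COX1 (chrMT:8026-8055), COX2 (chrMT:8861-8890), COX3 (chrMT:10554-10583) and CYTB (chrMT:16452-16481) are shown, with the encoded part of the stop codon in capitals. COX2 and COX3 each encode a single T, and their stop codon is completed by the poly(A) tail.

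COX1 end: gaagaaccaacatatatcaacctaaaaTAA

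COX2 end: aaaaatggtcaacatcaatattaacaggtT

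COX3 end: tttacgtatcaatctattgatgaggatccT

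CYTB end: atcatcgaaaacaacctattaaaatgaAGA

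The samples had 6193659 to 58878377 reads on genes, the fewest in the second pESCLC-FL6i sample and the most in the second Lv-piPSC-F sample. Values below are normalized counts, reads divided by 1 size factor per sample. In bulk samples, fewer cells of a type and less RNA per cell cannot be told apart. The cell labels were checked against their markers. Of 10 pluripotency markers, 4 could be matched (NANOG, LIN28A, KLF4 and ESRRB). Their summed level was 100 and 103 normalized counts for pESCLC-FLB2i, and 151 and 1690 for pESCLC-FL6i, most of the last from KLF4 at 1653. In the other groups the sum was between 2103 (second Epi-piPSC-FLB2i sample) and 16505 (second Epi-piPSC-FL6i sample), with LIN28A the most abundant. The 7 trophectoderm markers summed to 483349 and 468984 in pESCLC-F and to 341486 and 398299 for pESCLC-primary, led by KRT8. The same markers summed to 353 to 975 in pESCLC-FLB2i and pESCLC-FL6i, where up to 3 of the 7 were at 0. The 6 matched primitive endoderm markers summed to 211598 and 185227 for pESCLC-F, led by APOA1, and to 886 and 1522 for Lv-piPSC-F. The 6 matched fibroblast markers summed to 331015 in the second pESCLC-FL6i sample, led by COL1A1 at 155568, against 37404 in the first, where VIM was the most abundant. The part that these other cell types had in the levels of the 6 genes was not tested.

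The Lv-piPSC-F libraries stood apart from the other 12 in how reads were divided over the mitochondrial chromosome. The ratio of ATP8 to ATP6 was 0.0772 in the first and 0.428 in the second, against 0.220 to 0.284 elsewhere. COX3 to ATP6 was 0.749 and 0.843, against 1.06 to 1.52 elsewhere. ND6, a complex I gene and the only protein-coding gene on the opposite strand, was at 23378 and 9917 normalized counts, against 492 to 2836 elsewhere. Of the 6 genes, ATP8 had the Lv-piPSC-F samples farthest apart, with the second 4.45 times the first. Whether the libraries differ in strand, preparation or cells was not tested. The main tests and counts that use these libraries are also given without 1 or both of them.

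**Figure D1:**
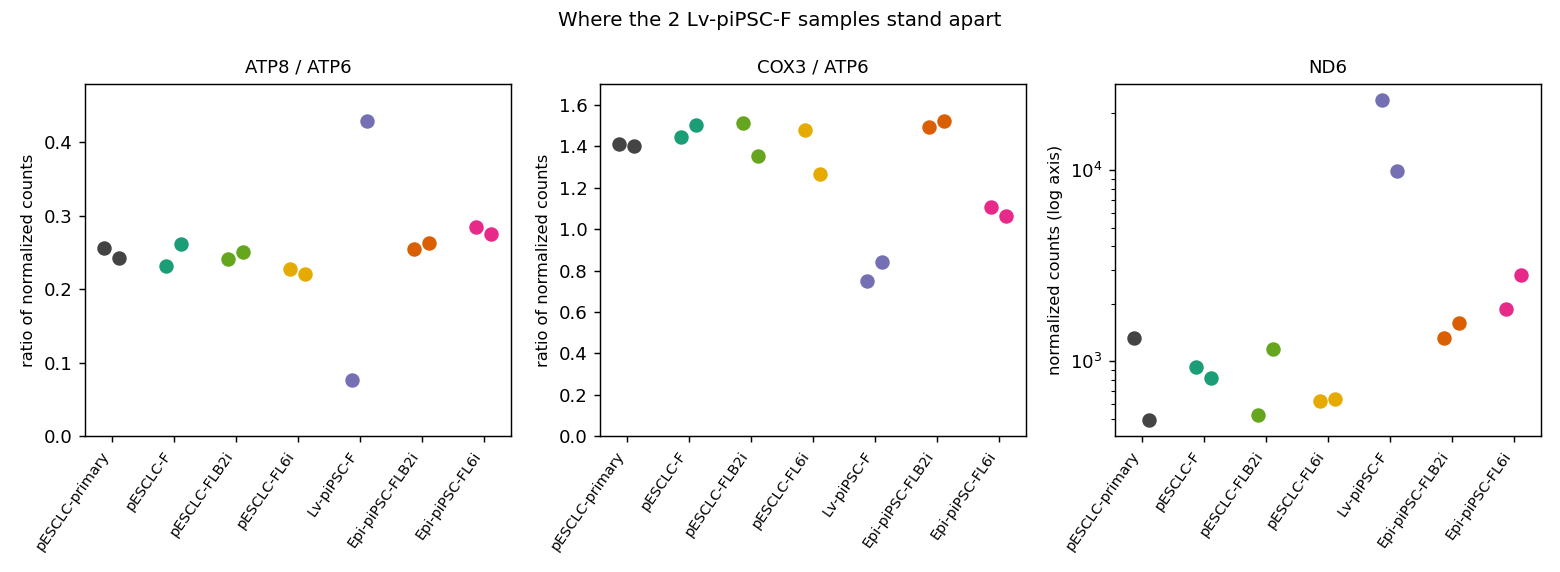
Ratios between neighboring mitochondrial genes, and ND6, in each of the 14 samples. The Lv-piPSC-F samples lie outside the range of the other 12 for ATP8 to ATP6 (0.0772 and 0.428), for COX3 to ATP6 (0.749 and 0.843) and for ND6 (23378 and 9917 normalized counts).

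Together the 6 genes took between 2.35% and 5.83% of all reads on genes. The share was lowest in pESCLC-F (2.45% and 2.35%) and was 3.29% and 2.71% for pESCLC-primary, 2.90% and 4.35% for pESCLC-FLB2i, and 3.24% and 2.77% for pESCLC-FL6i. The shares of the reprogrammed lines were 5.53% and 5.44% for Lv-piPSC-F, 4.01% and 5.83% for Epi-piPSC-FLB2i, and 3.82% and 4.15% for Epi-piPSC-FL6i. Only the second pESCLC-FLB2i sample among the pESCLC lay within the range of the reprogrammed lines. By reads, COX1 ranked first of all genes in 8 of the 14 samples. COX1 and COX3 were among the 10 most abundant in all 14 samples, COX2 in 10, ATP6 in 7, CYTB in 3 and ATP8 in 0.

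**Figure D2:**
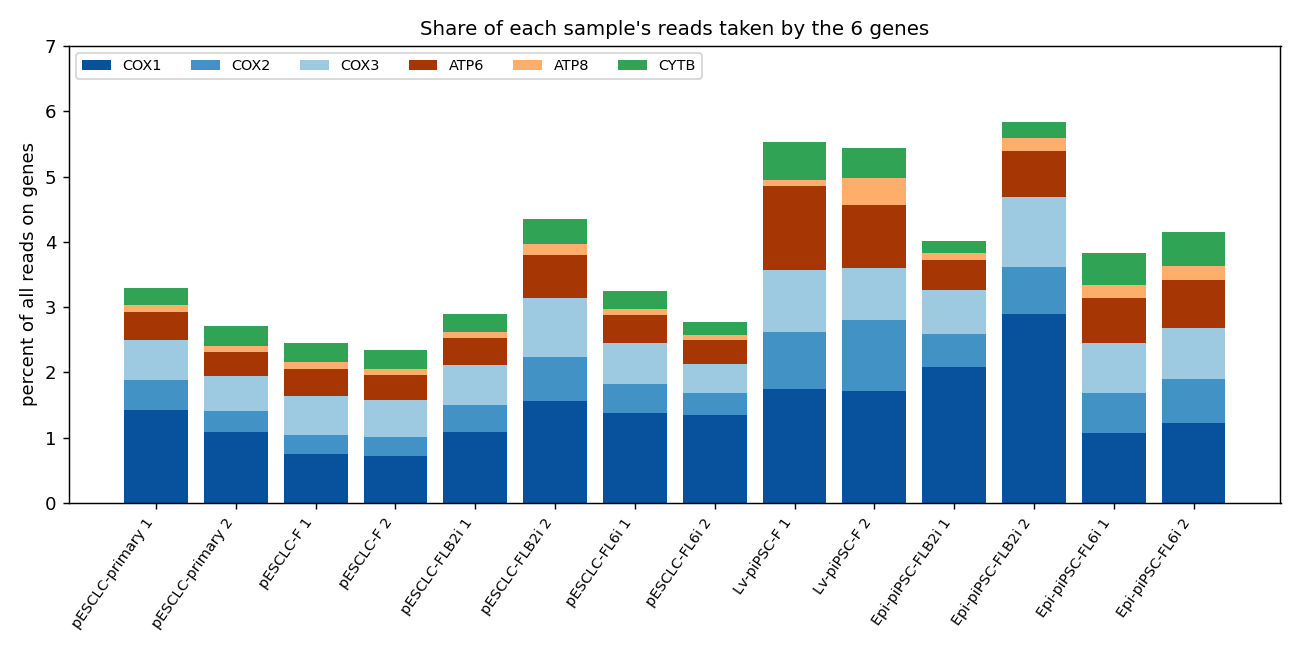
Share of all reads on genes, in percent, taken by the 6 genes in each of the 14 samples, by gene and group. The reprogrammed lines reached 3.82% to 5.83%, and pESCLC-F had the lowest shares, 2.45% and 2.35%.

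Per kilobase of gene length, the median level over the 14 samples was 153174 normalized counts for COX3, 141370 for COX1, 121595 for COX2, 120217 for ATP6 and 96109 for ATP8. CYTB had 49036 per kilobase, the lowest of the 6, although it is the second longest. COX1, the longest of the 6, led in reads, and per kilobase COX3 was above it. Across samples, COX1 ranged from 89971 to 336038 normalized counts per kilobase and CYTB from 26924 to 97853.

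COX1, the catalytic subunit of complex IV, had 251599 and 196949 normalized counts for pESCLC-primary and 153428 and 139004 for pESCLC-F. It was at 177800 and 276213 at passages 3 and 6 of pESCLC-FLB2i, and at 218352 and 218480 at passages 3 and 9 of pESCLC-FL6i. In the reprogrammed lines, COX1 was at 335309 and 350896 for Lv-piPSC-F, 359905 and 519178 for Epi-piPSC-FLB2i, and 180977 and 208785 for Epi-piPSC-FL6i. Epi-piPSC-FLB2i had the highest mean and pESCLC-F the lowest, and the samples of both groups lay outside those of every other group. The pESCLC-FLB2i, pESCLC-primary and pESCLC-FL6i samples overlapped in the middle of the order.

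COX2 encodes the subunit that takes electrons from cytochrome c. It was at 78831 and 56296 normalized counts for pESCLC-primary, 59771 and 57760 for pESCLC-F, 67235 and 119915 for pESCLC-FLB2i, and 71852 and 54300 for pESCLC-FL6i. The values of the reprogrammed lines were 165993 and 222513 for Lv-piPSC-F, 88484 and 129345 for Epi-piPSC-FLB2i, and 105519 and 116198 for Epi-piPSC-FL6i. Only Lv-piPSC-F lay apart from the next group, and all neighbors below it in the order overlapped.

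COX3, the third core subunit of complex IV, was at 107869 and 96001 normalized counts for pESCLC-primary, 122864 and 110044 for pESCLC-F, 100588 and 157719 for pESCLC-FLB2i, and 99734 and 73737 for pESCLC-FL6i. It was at 183150 and 165369 for Lv-piPSC-F, 117313 and 192992 for Epi-piPSC-FLB2i, and 129176 and 133420 for Epi-piPSC-FL6i. COX3 varied least of the 6, with a highest sample 2.62 times the lowest. All neighbors in the order of groups overlapped except pESCLC-F and pESCLC-primary.

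ATP6, the subunit that forms the proton path of complex V, had 76443 and 68634 normalized counts for pESCLC-primary, 85198 and 73371 for pESCLC-F, 66572 and 116449 for pESCLC-FLB2i, and 67555 and 58159 for pESCLC-FL6i. In the reprogrammed lines its values were 244449 and 196182 for Lv-piPSC-F, 78537 and 127019 for Epi-piPSC-FLB2i, and 116953 and 125545 for Epi-piPSC-FL6i. As for COX2, Lv-piPSC-F was highest and apart from the next group.

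ATP8, a small membrane subunit of complex V, was at 19530 and 16614 normalized counts for pESCLC-primary, 19683 and 19171 for pESCLC-F, 16079 and 29122 for pESCLC-FLB2i, and 15404 and 12819 for pESCLC-FL6i. It was at 18876 and 84025 for Lv-piPSC-F, 19958 and 33368 for Epi-piPSC-FLB2i, and 33242 and 34564 for Epi-piPSC-FL6i. The first Lv-piPSC-F sample lay within the range of the pESCLC groups and the second above every other sample.

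CYTB followed another order. It was at 45248 and 54762 normalized counts for pESCLC-primary, 61180 and 57041 for pESCLC-F, 45730 and 69565 for pESCLC-FLB2i, and 43137 and 31508 for pESCLC-FL6i. Lv-piPSC-F had 111553 and 96097, Epi-piPSC-FLB2i 30693 and 44734, and Epi-piPSC-FL6i 83401 and 90420. Lv-piPSC-F and then Epi-piPSC-FL6i were the highest groups, each apart from the next, while Epi-piPSC-FLB2i, the highest group for COX1, was among the lowest for CYTB.

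**Figure D3:**
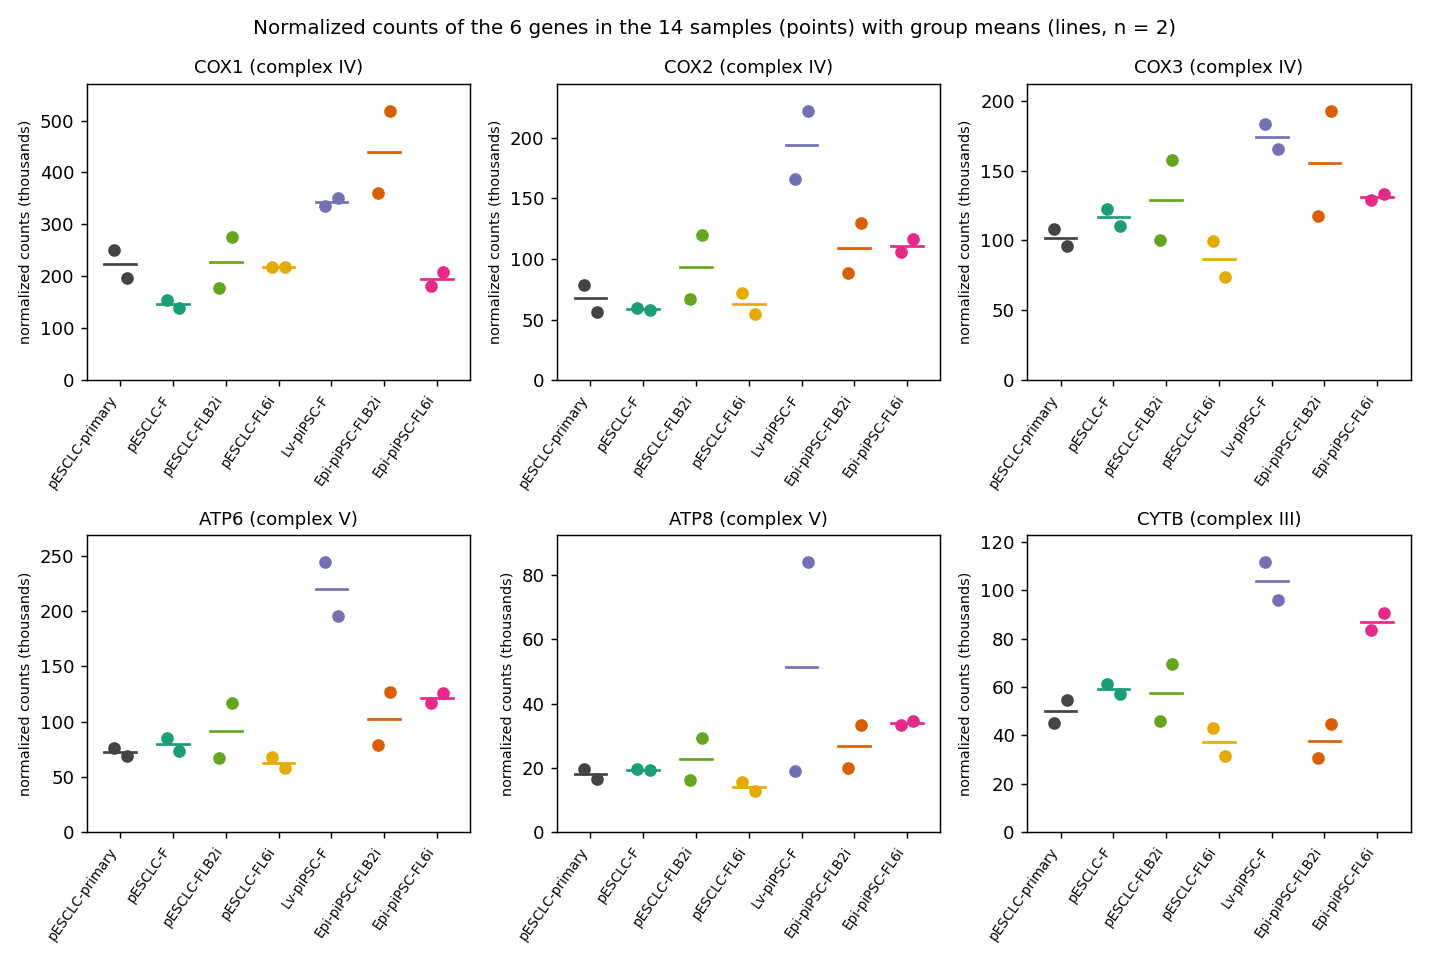
Normalized counts of each of the 6 genes in the 14 samples, by group. COX1 was highest in Epi-piPSC-FLB2i (359905 and 519178), where CYTB was among the lowest (30693 and 44734), and CYTB was at 83401 and 90420 for Epi-piPSC-FL6i.

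The duplicates that were passages of 1 line did not always match. In pESCLC-FLB2i all 6 genes were higher at passage 6 than at passage 3, by 1.52-fold (CYTB) to 1.81-fold (ATP8). In Epi-piPSC-FLB2i all 6 were higher at passage 12 than at passage 9, by 1.44-fold (COX1) to 1.67-fold (ATP8). In pESCLC-FL6i 5 of the 6 were lower at passage 9 than at passage 3, at 0.730 (CYTB) to 0.861 (ATP6) of the earlier level, and COX1 was at 1.00 of it. Fibroblast markers summed to 47041 and 145174 normalized counts at passages 3 and 6 of pESCLC-FLB2i, led by VIM at 45429 and 106261, and to 37404 and 331015 at passages 3 and 9 of pESCLC-FL6i. At passages 9 and 12 of Epi-piPSC-FLB2i they summed to 46927 and 43452. Their part in these differences was not tested. The 2 lines of Epi-piPSC-FL6i differed less, by 1.03-fold (COX3) to 1.15-fold (COX1). With 1 sample at each passage, these differences have no test.

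Across the 7 groups, 3 of the 6 genes differed by limma's moderated F test at a threshold of 0.05 on the p adjusted by Benjamini-Hochberg, against 69.4% of all genes tested. They were CYTB (adjusted p = 0.00881), ATP6 (adjusted p = 0.0165) and COX2 (adjusted p = 0.0190). COX1 (adjusted p = 0.0659), ATP8 (adjusted p = 0.246) and COX3 (adjusted p = 0.247) did not pass in limma. Without both Lv-piPSC-F samples only CYTB passed, with an adjusted p of 0.0413 in limma, against 61.4% of all genes.

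The opposite standing of COX1 and CYTB was clear in their ratio, which does not depend on the scaling of a sample and was chosen after its values were seen. COX1 to CYTB was 11.7 and 11.6 for Epi-piPSC-FLB2i and 2.17 and 2.31 for Epi-piPSC-FL6i. It was 5.56 and 3.60 for pESCLC-primary, 2.51 and 2.44 for pESCLC-F, and 3.01 and 3.65 for Lv-piPSC-F. Passages 3 and 6 of pESCLC-FLB2i had ratios of 3.89 and 3.97, and passages 3 and 9 of pESCLC-FL6i had 5.06 and 6.93. The duplicates of Epi-piPSC-FLB2i had nearly the same ratio although their levels of both genes differed by over 1.44-fold. Over the 14 samples Pearson's r between COX1 and CYTB on the log2 scale was -0.02, and -0.39 over the 12 samples without Lv-piPSC-F. COX2 and ATP6 had an r of 0.93 over the 14 samples and 0.90 over those 12. ATP8 and ATP6, which share an mRNA, had an r of 0.69 over the 14 samples and 0.99 over the 12 without Lv-piPSC-F. These correlations are descriptions, since the genes of a sample share a library and the groups are not independent samples.

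**Figure D4:**
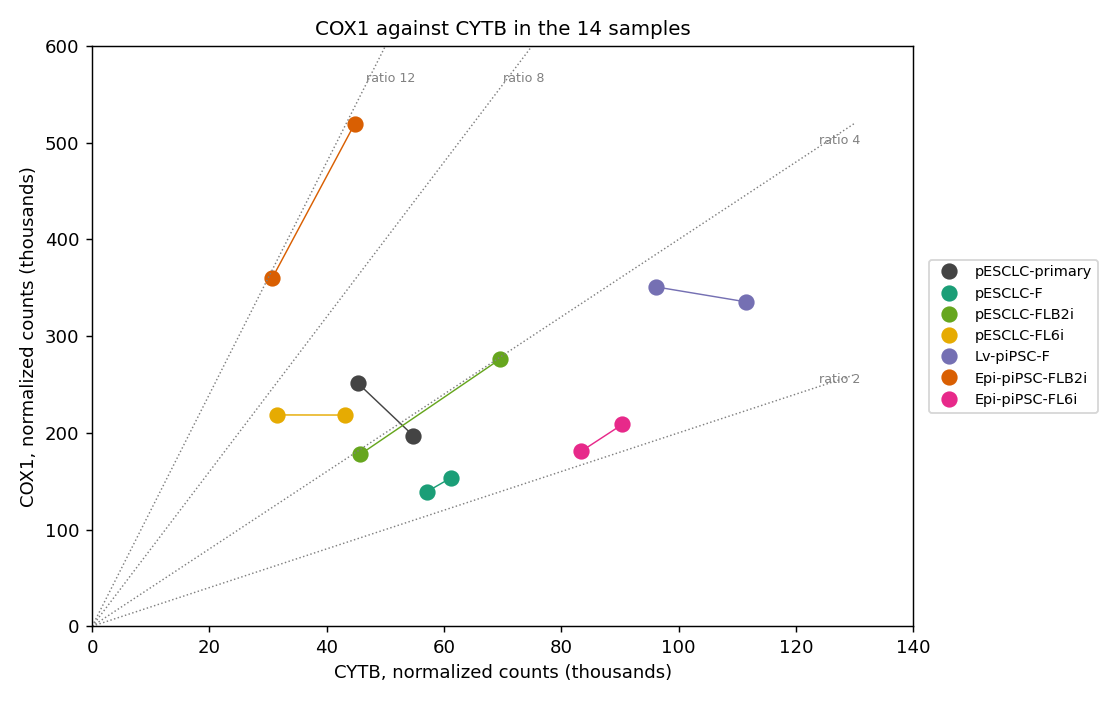
Normalized counts of COX1 against CYTB in the 14 samples, by group. The Epi-piPSC-FLB2i samples, with ratios of 11.7 and 11.6, lie far from the Epi-piPSC-FL6i samples, with 2.17 and 2.31.

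Comparisons with the primary outgrowths addressed how the established pESCLC lines departed from their source, and all 3 share the same pESCLC-primary samples. In pESCLC-F 0 of the 6 genes passed, against 1.15% of all genes, and log2 fold changes ran from -0.61 (COX1) to 0.25 (CYTB). In pESCLC-FLB2i 0 of 6 passed, against 30.3% of all genes, and log2 fold changes ran from -0.01 (COX1) to 0.43 (COX2). In pESCLC-FL6i 0 of 6 passed, against 33.8% of all genes, and log2 fold changes ran from -0.43 (CYTB) to -0.03 (COX1). The lowest adjusted p of any of the 6 in limma was 0.789, 0.437 and 0.311 in the 3 comparisons, and 0 of the 6 had an unadjusted p under 0.05. DESeq2 on the recovered reads also called 0 of the 6, against 3.75%, 36.0% and 38.2% of all genes, and so did edgeR, against 0.618% to 31.3%. The interval of the difference remained wide, from -1.52 to 0.30 on the log2 scale for COX1 in pESCLC-F.

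Between the FL6i and FLB2i media in pESCLC, 0 of the 6 genes passed in limma, against 0.381% of all genes. All 6 log2 fold changes were negative in FL6i relative to FLB2i, from -0.62 (ATP8) and -0.61 (CYTB) to -0.02 (COX1), with a median of -0.54 against 0.01 for all genes. The lowest adjusted p was 0.348, for CYTB in limma, 0 of the 6 had an unadjusted p under 0.05, and DESeq2 and edgeR called 0, against 6.67% and 0.0312% of all genes. The second pESCLC-FL6i sample was also the one with fibroblast markers at 331015 normalized counts, against 37404 in the first. In pESCLC-FLB2i they summed to 47041 and 145174, and there all 6 genes were higher in the second sample. The part of these markers in the result was not tested.

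In Epi-piPSC the same media were compared in lines made by the same method. CYTB rose 2.34-fold in FL6i, from 30693 and 44734 to 83401 and 90420 normalized counts, with no overlap (log2 fold change 1.23, SE 0.31, adjusted p = 0.0167 by limma). It was 1 of the 6 genes called, against 24.5% of all genes, or 12.4% in the same direction. COX1 was at 180977 and 208785 in FL6i and 359905 and 519178 in FLB2i, also with no overlap (log2 fold change -1.15, SE 0.41), but did not pass (adjusted p = 0.0659 by limma). The log2 fold changes of COX2 (0.05), ATP8 (0.39), ATP6 (0.28) and COX3 (-0.20) were smaller than those of COX1 and CYTB. The call on CYTB was lost without the first Epi-piPSC-FLB2i sample (adjusted p = 0.148), the first Epi-piPSC-FL6i sample (adjusted p = 0.0759) or the second (adjusted p = 0.113) in limma. COX1 passed in 7 of the alternatives, among them DESeq2 (adjusted p = 0.000122) and edgeR (adjusted p = 0.0262). Markers of other cells differed between the same samples. Trophectoderm markers summed to 13264 and 7987 in FLB2i and 7216 and 11364 in FL6i, where CDX2 fell, from 785 and 757 to 0.965 and 0, and TFAP2C rose, from 189 and 251 to 1088 and 1608 (adjusted p = 0.000495 and 0.0490 by limma). Primitive endoderm markers summed to 1881 and 1897 against 552 and 746, with PDGFRA at 941 and 1056 against 44.4 and 48.9 and GATA6 at 10.3 and 34.1 against 433 and 624. Fibroblast markers summed to 46927 and 43452 against 27492 and 29288, led by VIM, but 0 of the 6 passed in limma and DCN and LUM were higher in FL6i (50.2 and 74.9 against 10.3 and 0.922 for DCN). Pluripotency markers summed to 2420 and 2103 against 14049 and 16505. Within the last list ESRRB rose and NANOG fell, from 25.9 and 36.9 to 0.965 and 0.999 (adjusted p = 0.000860 by limma). For NANOG the paper reports the other direction by qPCR, in randomly selected lines of each medium at later passages than those here. It also reports that all Epi-piPSC lines stained negative for NANOG. The part of all these markers in the result was not tested.

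The effect of the medium was then compared between the origins, as the change in Epi-piPSC minus the change in pESCLC. For CYTB this difference was 1.84 on the log2 scale (SE 0.44, adjusted p = 0.0332 by limma), from 0.654-fold in pESCLC to 2.34-fold in Epi-piPSC. CYTB was 1 of the 6 genes called, against 7.80% of all genes, or 3.61% in the same direction. For COX1 the difference was -1.13 (SE 0.58, adjusted p = 0.268 by limma). The call on CYTB was lost without either pESCLC-primary sample, either pESCLC-F sample, the second pESCLC-FLB2i sample, or any Epi-piPSC sample, with adjusted p from 0.0564 to 0.140 in limma. It was also lost when only the 8 samples compared were fitted (adjusted p = 0.113 by limma). Without both Lv-piPSC-F samples in the fit, CYTB passed in the comparison of media in Epi-piPSC (adjusted p = 0.0191) and in this difference (adjusted p = 0.0361) by limma.

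Lv-piPSC-F was compared with pESCLC-F, both grown with FGF2 but in different base media, and the samples of Lv-piPSC-F represent 1 line. COX2 rose 3.27-fold (log2 fold change 1.71, SE 0.38, adjusted p = 0.00513), ATP6 rose 2.77-fold (1.47, SE 0.36, adjusted p = 0.00947) and COX1 rose 2.35-fold (1.23, SE 0.41, adjusted p = 0.0364) by limma. These were 3 of the 6 genes, against 39.1% of all genes called, or 19.1% in the same direction. CYTB had no overlap between the groups and a log2 fold change of 0.81 (adjusted p = 0.0613 by limma), and passed in 8 of the alternatives. COX3 had a log2 fold change of 0.58 (adjusted p = 0.240 by limma). ATP8 had a log2 fold change of 1.04 (adjusted p = 0.177 by limma) that rested on 1 library: it was -0.041 without the second Lv-piPSC-F sample and 2.11 without the first (adjusted p = 0.00399). The call on COX1 was lost without any of the pESCLC-primary, pESCLC-F, Lv-piPSC-F or Epi-piPSC-FL6i samples in turn (adjusted p 0.0627 to 0.172 by limma) and with the replicate block (adjusted p = 0.0531). ATP6 was lost without the second pESCLC-F sample (adjusted p = 0.0683 by limma). The groups also differed in trophectoderm markers, at 91080 and 77071 for Lv-piPSC-F and 483349 and 468984 for pESCLC-F, although TFAP2C of that list was at 212 and 910 against 0 and 2.02. Primitive endoderm markers summed to 886 and 1522 against 211598 and 185227, with 5 of 6 lower by limma. Fibroblast markers summed to 12573 and 38665 against 6666 and 12082. Of these 6, 1 was higher, VIM (3.04-fold, adjusted p = 0.00566 by limma), and 0 were lower. COL1A1 of that list was at 46.2 and 11309 against 1661 and 4060. The part of all these markers in the result was not tested.

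Epi-piPSC and pESCLC were also compared within each medium. In FLB2i 0 of the 6 genes passed in limma, against 11.4% of all genes, and 1 of 6 had an unadjusted p under 0.05. That gene was COX1, with a log2 fold change of 0.96 (SE 0.41, adjusted p = 0.161 by limma), which passed in DESeq2 (adjusted p = 0.00383), while edgeR called 0 of the 6, against 20.4% and 10.2% of all genes. Of the 7 trophectoderm markers 5 were higher in Epi-piPSC-FLB2i by limma, and of the fibroblast markers only VIM passed. VIM was at 25011 and 24836 against 45429 and 106261. LIN28A was at 2210 and 1940 against 32.3 and 0.985, while ESRRB was lower, at 3.10 and 10.1 against 27.7 and 47.3. The part of these markers in FLB2i was not tested. In FL6i CYTB was higher in Epi-piPSC by 2.36-fold (log2 fold change 1.24, SE 0.31, adjusted p = 0.0125 by limma), 1 of 6 genes called against 33.8% of all genes, or 15.5% in the same direction. The other log2 fold changes in FL6i were 1.27 for ATP8, 0.95 for ATP6, 0.83 for COX2, 0.61 for COX3 and -0.17 for COX1, and these did not pass in limma. DESeq2 also called COX2 and ATP6 there, and edgeR also called ATP6, which passed in 4 of 27 alternatives. ATP8 passed there by limma without both Lv-piPSC-F samples in the fit, an alternative chosen after seeing the data. The call on CYTB was lost without the first (adjusted p = 0.0599) or the second Epi-piPSC-FL6i sample (adjusted p = 0.0843), and with only the samples compared (adjusted p = 0.136), all in limma. Markers of other cells differed between these groups too. Of the 7 trophectoderm markers 5 were higher in Epi-piPSC by limma, and they summed to 7216 and 11364 against 353 and 975. Fibroblast markers summed to 27492 and 29288 against 37404 and 331015 for pESCLC-FL6i. Of these 6, 0 were higher and 1 was lower by limma, with a median log2 fold change of 0.61. COL1A1 of that list was at 5575 and 7468 against 165 and 155568. Of the 4 matched pluripotency markers 2 were higher and 1 was lower by limma. LIN28A was at 10048 and 11450 against 23.1 and 0, while NANOG was at 0.965 and 0.999 against 15.7 and 7.86. The part of these in the result was not tested.

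**Figure D5:**
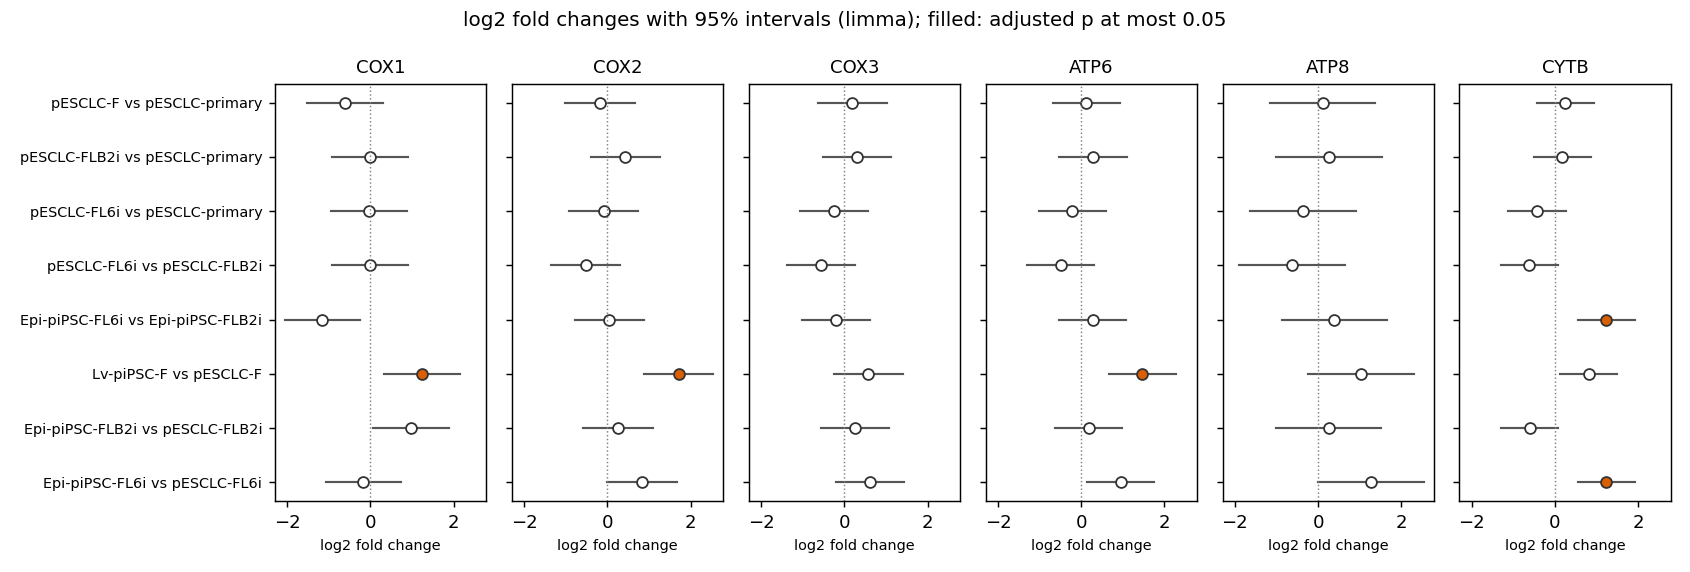
Log2 fold changes of the 6 genes with 95% intervals from limma in the comparisons between groups. CYTB in Epi-piPSC (1.23, FL6i relative to FLB2i) and COX2, ATP6 and COX1 in Lv-piPSC-F (1.71, 1.47 and 1.23, relative to pESCLC-F) are among those that passed.

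The 7 complex I genes of the mitochondrial genome were set beside the 6. All but ND6 lie on the same strand as the 6. ND4 and ND5 were the most abundant in reads, with means of 80859 and 73123 normalized counts. Between the media in Epi-piPSC 0 of 7 passed in limma, against 24.5% of all genes, with ND5 at -0.89 (adjusted p = 0.104) and ND2 at 0.44 (adjusted p = 0.399). In Lv-piPSC-F relative to pESCLC-F, 4 of 7 rose and 0 fell, against 39.1% of all genes called, or 19.1% higher, and 4 or 3 of 7 rose without the first or the second Lv-piPSC-F sample. ND6 rose most, 17.4-fold (adjusted p = 0.000237 by limma), from 929 and 821 to 23378 and 9917 normalized counts. ND4, ND4L and ND5 had log2 fold changes of -0.23, -0.16 and -0.15 there, against 1.71 for COX2 and 1.47 for ATP6. In FL6i, 3 of 7 were higher in Epi-piPSC than in pESCLC and 0 lower, against 33.8% of all genes called, or 15.5% higher, beside CYTB alone of the 6 in limma.

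Nuclear genes of the same complexes were set beside the 6 in 2 of these comparisons. Only genes matched to a symbol were counted. These were 7 of 9 complex III, 14 of 16 complex IV and 11 of 18 complex V subunits. They were also 21 of 27 assembly factors, 23 of 24 transcription and RNA processing genes and 8 of 9 measures of mass. Of glycolytic and stress response genes, 19 of 21 and 13 of 15 were matched, and of DNA maintenance and biogenesis genes all were. Of all genes, limma called 39.1% in Lv-piPSC-F relative to pESCLC-F, 19.1% as higher, and the counts of each list are to be read against these shares. In Lv-piPSC-F relative to pESCLC-F, 7 of 7 matched nuclear complex III subunits rose, with a median log2 fold change of 1.13 against 0 for all genes. UQCR11 rose most, 5.14-fold (adjusted p = 0.000317 by limma), and CYTB beside them did not pass in limma but did in DESeq2 and edgeR. Of 14 complex IV subunits 5 rose and 2 fell, with COX6A2 up 3.08-fold (adjusted p = 0.000156) and COX4I1 down 1.55-fold (adjusted p = 0.04998) by limma (median 0.36). Of the mitochondrial subunits COX1 and COX2 rose. Of 11 complex V subunits 7 rose and 0 fell, led by ATP5MC1, a subunit of the rotating ring (2.37-fold, adjusted p = 0.00104 by limma), with a median of 0.72. Of 21 assembly factors 14 rose, led by COA7 (4.20-fold), and 1 fell, COX19 (1.63-fold), with a median of 0.81. Of 23 genes of mitochondrial transcription and RNA processing 14 rose and 0 fell, led by FASTKD2 (5.03-fold), with a median of 0.82. All 8 matched genes taken as measures of mitochondrial mass rose, led by the chaperonin HSPD1 (6.61-fold), with a median of 0.97. Of 9 genes of mitochondrial DNA maintenance 3 rose, led by RRM2B (3.50-fold), and 0 fell, with a median of -0.08. Of 8 regulators of mitochondrial biogenesis 3 rose, led by ESRRB (18.3-fold), and 1 fell, PPARGC1A, at 0 and 0.696 normalized counts against 23.0 and 34.4, with a median of 0.44. Of 13 stress response genes 4 rose, led by HSPE1 (4.31-fold), and 3 fell, FGF21 most, at 2.20 and 1.04 normalized counts against 27.2 and 66.8, with a median of 0.53. Of 19 glycolytic genes 1 rose, PFKM (2.19-fold), and 9 fell, with a median of -1.12. The lactate exporter SLC16A3 fell most, at 103 and 147 normalized counts against 14302 and 12094. Without the first or the second Lv-piPSC-F sample in turn, limma called 34.1% or 34.7% of all genes. Then 6 and 6 of the complex III subunits rose, 4 and 4 of the complex IV subunits, 7 and 4 of the complex V subunits, 10 and 10 of the assembly factors and 13 and 10 of the transcription and RNA processing genes. Of the measures of mass 8 and 7 rose, and of the glycolytic genes 6 and 9 fell.

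Between the media in Epi-piPSC limma called 24.5% of all genes, 12.4% as higher, and CYTB alone of the 6. Of the lists, 2 of 7 nuclear complex III subunits rose and 0 fell in FL6i, with a median of 0.61 against -0.03 for all genes. UQCRQ rose most (2.27-fold, adjusted p = 0.0134 by limma). Of 14 complex IV subunits 4 rose and 2 fell, with COX5B up 1.64-fold and a median of 0.39. COX4I2 fell most and had 1.93 and 0 normalized counts in FL6i against 23.8 and 32.3 in FLB2i. Of 11 complex V subunits 1 rose, ATP5MC1 (2.58-fold), and 0 fell, with a median of 0.30. Of 21 assembly factors 2 rose, ATPAF2 most (2.38-fold), and 0 fell, with a median of 0.39. Of 23 genes of mitochondrial transcription and RNA processing 8 rose and 1 fell, with a median of 0.62. TFB2M, a factor that the mitochondrial RNA polymerase needs to start, rose 4.4-fold, from 130 and 84.8 to 454 and 479 normalized counts (adjusted p = 0.00226 by limma). GRSF1, an RNA-binding protein of mitochondrial RNA granules, fell 1.67-fold (adjusted p = 0.0174 by limma). TK2, a mitochondrial thymidine kinase, was the 1 of 9 DNA maintenance genes that rose (7.28-fold, list median 0.64). Of 8 measures of mass 2 rose, led by TOMM40 (2.57-fold), and 0 fell, with a median of 0.35. Of 8 biogenesis regulators 1 rose, ESRRB, also a pluripotency marker, from 3.10 and 10.1 to 2819 and 3413 normalized counts, and ESRRG fell, at 0 and 0.999 against 9.31 and 4.61, with a list median of 0.40. Of 19 glycolytic genes 1 rose, PFKP (2.37-fold), and 5 fell, ENO2 most (9.09-fold), with a median of -0.53. Of 13 stress response genes 2 rose, led by PSAT1 (3.67-fold), and 0 fell, with a median of 0.73. Without both Lv-piPSC-F samples in the fit limma called 26.3% of all genes, 1 of 7 complex III subunits, 7 of 23 transcription and RNA processing genes and 0 of 19 glycolytic genes rose, and 3 of 21 assembly factors and 4 of 13 stress response genes rose. The lists were chosen with earlier results of these data known, so their counts are descriptions. The most abundant members over the 14 samples, as mean normalized counts not divided by length, were UQCRFS1 and UQCRC1 (4467 and 3690) for complex III, COX4I1 and COX6A1 (4933 and 3241) for complex IV, and ATP5F1A and ATP5PO (18688 and 4187) for complex V. They were UQCC2 and ATPAF1 (1161 and 909) for assembly, LRPPRC and TFAM (4972 and 1789) for transcription and RNA processing, POLG and TWNK (1106 and 1000.2) for DNA maintenance, and HSPD1 and HSPA9 (13257 and 8327) for mass. PPRC1 and GABPA (1743 and 956) led the biogenesis regulators, GAPDH and ENO1 (100257 and 99761) glycolysis, and ASNS and HSPE1 (5310 and 3621) the stress response.

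The genes most like the 6 were ranked by the mean of their Pearson's r with each of the 6 over the 14 samples, on the log2 scale, among 16022 genes. ND2 (0.81), ND1 (0.79) and ND3 (0.78) came first, followed by REX1BD and IPO7 (both 0.77), which are encoded in the nucleus. Outside the mitochondrial genome the next were UQCR10, a complex III subunit, METAP2 and HSP90AB1 (all 0.76). Over the 12 samples without Lv-piPSC-F, ND2 (0.77), ND1 (0.73) and ND3 (0.72) were in places 1, 3 and 5, while REX1BD and IPO7 (0.69 and 0.66) were in places 12 and 21. UQCR10, METAP2 and HSP90AB1 (0.68, 0.68 and 0.65) were in places 13, 14 and 29.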

How the data were processed

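The authors aligned 50 bp paired-end reads from stranded TruSeq mRNA libraries to Sscrofa11.1 with TopHat 2.1.0, counted reads per gene with HTSeq (default settings), and normalized the counts with DESeq2, per the methods and the submitters' processing notes. The annotation release is not given in the sources used here. The table deposited by the authors holds signal values, which are normalized counts, that is reads divided by 1 size factor per sample, for 19588 genes in 14 samples. Whole reads could be recovered for 100% of the values of each sample, within 1e-06 reads (6193659 to 58878377 per sample). HTSeq counts by strand at its default, and whether the orientation it expects suits this kit was not tested, so antisense neighbors are uncertain.

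Groups were taken from the labels. Values were transformed as log2(normalized count + 1) and tested in limma, its prior variance following a trend, over the 16028 genes that reached 10 normalized counts in 2 or more samples, in 1 fit of all 14 samples, with Benjamini-Hochberg adjustment over all genes and a threshold of 0.05. The study used DESeq2, which needs counts, so DESeq2 and edgeR were run on the recovered reads as alternatives, and the numbers of genes they called are given with the alternatives. Fold changes are on the log2(normalized count + 1) scale. Intervals are 95%. The pipeline was tested on simulated data. Alternatives were other pseudocounts and filters, other scalings, no trend, only the samples compared, the replicate number as a block, each sample left out in turn and, chosen after seeing the data, both Lv-piPSC-F samples left out. The lists were also counted without each of these samples, and likeness without both, likewise chosen after seeing the data. Gene symbols of the lists came from a reference table that matched 14151 identifiers, and sequences and positions from RefSeq. The table names its rows by Ensembl identifier only.

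The 6 genes were tested in every comparison, and each that passed in limma was named. Also named were the 5 genes most like them and, in each list (mitochondrial complex I, nuclear complexes III, IV and V, assembly factors, mitochondrial transcription and RNA processing, DNA maintenance, mass, biogenesis, glycolysis, stress response), the 2 most abundant and those that rose and fell most. The members and lists were chosen with earlier results of these data known. Versions were edgeR 4.0.16, DESeq2 1.42.0 and limma 3.58.1 under R 4.3.3.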

Additional observations from a re-analysis of the deposited data

Results flagged for a closer look

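The effect of the FL6i medium on CYTB differed between the origins of the cells, by a test of the difference itself. Relative to FLB2i, CYTB was 2.34-fold in Epi-piPSC and 0.654-fold in pESCLC, a difference of 1.84 on the log2 scale (SE 0.44, interval 0.87 to 2.81, adjusted p = 0.0332 by limma). Both Epi-piPSC-FL6i samples lay above both Epi-piPSC-FLB2i samples, and both pESCLC-FL6i samples lay below both pESCLC-FLB2i samples. The lower pESCLC-FL6i sample, the second (31508 normalized counts of CYTB), had fibroblast markers summing to 331015, against 37404 in the first. In pESCLC-FLB2i the second sample was the higher in both, with fibroblast markers at 145174 against 47041 and CYTB at 69565 against 45730. Between the media in Epi-piPSC, CDX2, PDGFRA and NANOG fell and TFAP2C, GATA6 and ESRRB rose in FL6i by limma, and the part of these markers in the result was not tested. For NANOG the paper reports the other direction by qPCR, in randomly selected lines of each medium at later passages than those here. It also reports that all Epi-piPSC lines stained negative for NANOG. The log2 fold change of CYTB in pESCLC, -0.61, did not itself pass (adjusted p = 0.348 by limma). The difference passed in 17 of 27 alternatives. It did not pass in 9 of the 14 fits that each left out a sample (adjusted p up to 0.140 by limma), nor when only the 8 samples compared were fitted (adjusted p = 0.113 by limma). Line cannot be told apart from medium in either origin. At passage 3, pESCLC-FL6i and pESCLC-FLB2i had 43137 and 45730 normalized counts of CYTB, and at passage 12, Epi-piPSC-FL6i and Epi-piPSC-FLB2i had 83401 and 44734, with 1 sample each and no test.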

How the results depend on the processing

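With 2 samples a group, the calls rest on a spread estimated over all 7 groups, and single calls at adjusted p near 0.05 moved with the settings. With only the samples compared, where the filter on low values was also applied to those samples alone, the genes called among the 6 went from 1 to 2 between the media in Epi-piPSC (8697 of 14252 genes called), and from 1 to 0 for the difference of the medium effects (3.19% of all genes) and for Epi-piPSC against pESCLC in FL6i (12.3%). Between the media in Epi-piPSC, COX1 joined CYTB, for 2 genes, also with all genes above 0, without a trend in the prior variance, in DESeq2 and in edgeR. DESeq2 called 6 of the 6 across the 7 groups, against 79.1% of all genes, 2 between the media in Epi-piPSC (30.6%), 2 for the difference (15.2%), 5 in Lv-piPSC-F against pESCLC-F (45.0%), 1 between the origins in FLB2i (20.4%) and 3 in FL6i (39.1%), where edgeR called 2 (31.8%). Without both Lv-piPSC-F samples, an alternative chosen after seeing the data, 1 passed across the remaining groups (61.4% of all genes) and 2 (ATP8 and CYTB) between the origins in FL6i (36.2%). Leaving out each sample in turn gave 2 to 4 across the 7 groups, 0 to 2 between the media in Epi-piPSC, 0 to 1 for the difference, 1 to 4 in Lv-piPSC-F against pESCLC-F and 0 to 2 between the origins in FL6i. Each of these fits left 1 sample in a group, and the number of all genes called moved with the sample left out, also across the 7 groups. The counts among the 6 in these fits are therefore descriptions, and a change in them is not specific to the 6. ATP8 in Lv-piPSC-F against pESCLC-F ranged from -0.041, a reversal, without the second Lv-piPSC-F sample to 2.11 without the first. The other single values were fold changes, set against the threshold, and ratios of the highest to the lowest group mean. Those ratios have no p-value and were set against the spread of the duplicates. Of all these values, 333 stayed the same, 26 lost the threshold, 23 gained it and 1, a ratio, moved.

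The replicate numbers did not pair the samples: deviations from the group means correlated above 0.1 in 1 of 21 pairs of groups (r from -0.075 to 0.36). With the replicate number as a block, 3 of the 6 passed across the 7 groups (68.4% of all genes), 1 between the media in Epi-piPSC (23.6%), 1 for the difference (6.83%), 2 in Lv-piPSC-F against pESCLC-F (38.4%) and 1 between the origins in FL6i (33.0%).

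Among all genes, the counts called by limma also moved with the settings. Between the media in pESCLC 61 were called, and 35 and 126 with pseudocounts of 0.1 and 5, 23 with the block, 1028 in DESeq2, 5 in edgeR, 31 without both Lv-piPSC-F samples and 7 to 3709 without a sample. With only the samples compared limma called 0 there, with 664 at an unadjusted p under 0.05. For pESCLC-F against pESCLC-primary 184 were called, and 446 with only the samples compared, 554 in DESeq2, 99 in edgeR and 48 to 350 without a sample. With only the samples compared the count went from 5420 to 2268 for pESCLC-FL6i against pESCLC-primary, 3934 to 8697 between the media in Epi-piPSC, 1250 to 487 for the difference (2430 in DESeq2) and 5417 to 1771 between the origins in FL6i. Between the origins in FLB2i it went from 1822 to 3203 in DESeq2. Without a sample the counts were 2806 to 6335 against 4861 for pESCLC-FLB2i, 3208 to 7389 for pESCLC-FL6i, 1472 to 5468 between the media in Epi-piPSC, 245 to 4074 for the difference, 4003 to 7739 against 6274 in Lv-piPSC-F, 353 to 3446 between the origins in FLB2i and 2556 to 7442 in FL6i. Scaling to the reads outside the mitochondrial genome moved the median of all genes by -0.16 in pESCLC-F and 0.14 in pESCLC-FL6i against pESCLC-primary.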

Other observations

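Of the 24 other rows in the block of mitochondrial identifiers, for which no symbol was used, 11 in the first Lv-piPSC-F sample and 14 in the second were outside the range of the other 12 samples. ENSSSCG00000018076 was at 6099 and 94.3 normalized counts in Lv-piPSC-F, against 8.74 to 69.9 elsewhere. ENSSSCG00000018064 was at 0 in the first and 2246 in the second, against 266 to 1152 elsewhere. ENSSSCG00000018079 was at 3.30 and 356, against 33.1 to 163 elsewhere. These rows were chosen after their values were seen.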
